A study of Daphnia magna with 20 samples.

Results

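Post-embryonic genes of the crustacean *Daphnia magna*, low in both embryo stages and measurable in every later stage, were described across 7 life stages on single-colour Agilent arrays. A gene was a member when its lowest stages were exactly E1 and E3, set apart from the other 5 stages by the widest step between neighbouring stage values, and when at least 2 of its probes were well above background on at least 2 arrays of each other stage. The 200 genes with the widest step were sought, but 131 of the 40786 genes with at least 3 probes met the rule, so all 131 were taken. Members are ranked by their gap, the lowest of the 5 other stage values minus the higher of the embryo values, with rank 1 the widest.

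All animals came from a single clone, called clone F in the methods, kept in parthenogenetic culture, and RNA was taken from the whole body. E1 were early embryos, labelled under 12 h of development, and E3 were late embryos, labelled 60 h and close to release from the brood pouch. J were juveniles of 4 days with no visible ovary. F1, F2 and F3 were adult females of 15, 16 and 18 days at the beginning, middle and end of a reproductive and intermoult cycle, flushed of their brood before collection. M were adult males, labelled 16 days, born to females exposed to the juvenoid hormone methyl farnesoate. The methods give younger ages than the labels for E1 and for males. There were 3 arrays in each stage and 2 in males. The embryos, juveniles and females carry the label female, and males received no treatment of their own beyond that of their mothers.

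*Daphnia* reproduces by cyclical parthenogenesis: in good conditions a female releases unfertilized eggs into her brood pouch at each moult, and the embryos develop there on yolk laid down by the mother. The early embryo starts with transcripts from the mother, and feeding, digestion of algae and growth by moulting begin after release. Digestive enzymes and genes of the reproductive organs are known examples of genes used mainly after hatching in arthropods. The sources used here pair none of the 131 members with a gene name, and a RefSeq gene table matched 0 of them, so no member is assigned a function, and the labelled stages could not be checked against named marker genes. A member is given by its rank in gap, and the gene model ID is printed for 4 members only.

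Values are log2 processed signals, quantile normalized and set relative to the median of each probe over the 20 arrays, with the gene value being the median over its probes. A value of 0 is thus the gene's own middle level, and levels of different genes were not compared. The 4 arrays of slide 1, which held E1 replicate 2, E3 replicate 2, F1 replicate 3 and M replicate 1, stood apart. On them 17.1 to 25.0% of gene spots were well above background, against 46.6 to 80.5% on the other 16 arrays, and their lowest processed signals were 22.3 to 67.8 against 3.46 to 5.74. The counts of calls are given with and without them. In whole animals, fewer cells that use a gene and less RNA of it in each cell cannot be told apart.

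The members were chosen by their stage values, so the size of the embryo step is a description and carries no test. The gap spanned 0.18 to 5.22 on the log2 scale of the authors' matrix, a 1.13- to 37.2-fold step, with a median of 1.84 or 3.59-fold. It was at least 1 in 100 members, at least 2 in 56 and at least 3 in 24. The weakest members were hardly separated: the member ranked 131 had embryo values of -0.18, 0.11 and -0.75 in E1 and 0.83, -1.39 and -0.30 in E3, which overlap the range from -0.36 to 0.34 on the 14 other arrays. All 6 embryo arrays lay below all 14 others in 94 of the 131 members. The same order held in 1.00% of the 31172 genes tested, a share from which nothing is read because the rule used these values.

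The detection rule set the number of members. The low set was exactly E1 and E3 in 374 genes, and 243 of these were kept out by detection. All 243 failed in males, 196 of them in males alone, while J also failed in 40 of them, F1 in 9, F2 in 6 and F3 in 17. With 2 male arrays the rule needed both, including the one on slide 1. The widest gap among genes kept out was 3.08, the second 2.88 and the median 0.75, and 83 of them had a gap of at least 1. With 1 male array made sufficient, an alternative chosen after seeing the data, the full 200 members were found.

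Low in embryos did not mean undetected. At least 2 probes were well above background on at least 2 arrays in 106 members in E1, in 117 in E3 and in 103 in both. Only the member ranked 16 had no probe well above background on any E1 array, and only the members ranked 16 and 22 had none on any E3 array. For these the fold is a lower bound, taken against the dimmest signal that passed as well above background on the array: the member ranked 16 was at least 2.21-fold (J) to 16.9-fold (F1) higher than in E1 and at least 2.94- to 22.4-fold higher than in E3. The member ranked 22 was at least 3.81-fold (J) to 17.0-fold (M) higher than in E3. No member had a saturated probe.

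Most probes of the members had the pattern singly. Of 522 probes of the members, 470 were by themselves lowest in E1 and E3. All probes of a gene did so in 88 members, and those that did were no majority in 9. The 131 gene models fell into 128 loci by their IDs, with the pairs ranked 4 and 6, 13 and 31, and 116 and 117 each on a shared locus, so these pairs are not separate evidence. Whether members with different locus IDs lie at different places in the genome was not checked, since no genome coordinates were used.

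**Figure D1:**
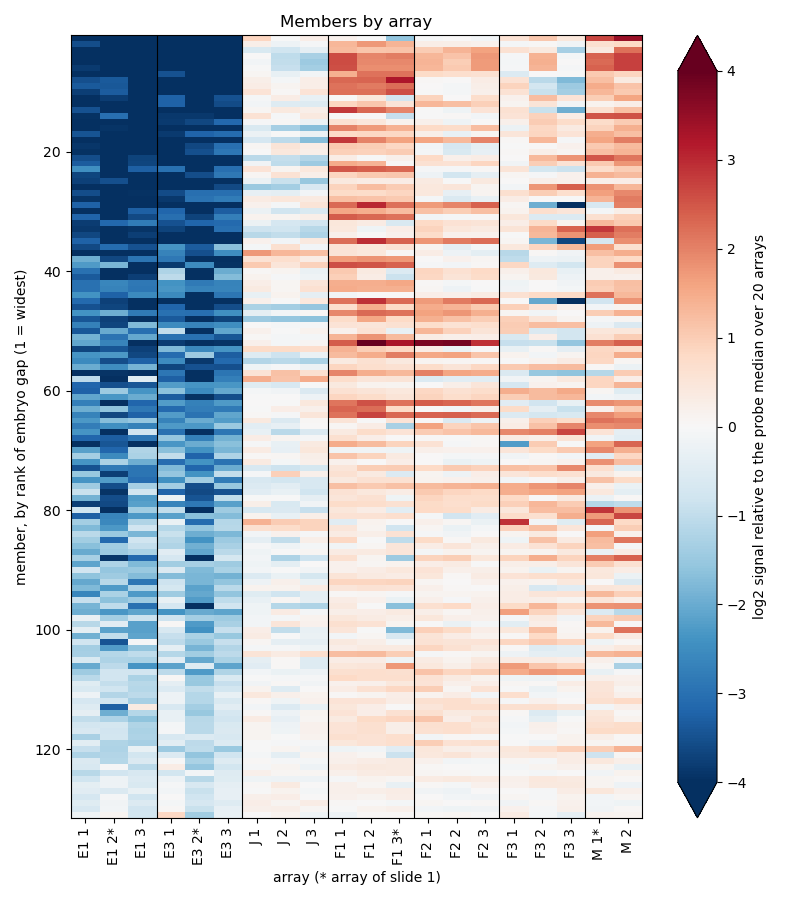
Log2 signal relative to the median of each probe over 20 arrays (colour, capped at -4 and 4) for the 131 members (rows, by rank of gap) on the 20 arrays (columns, by stage, with the arrays of slide 1 starred). The 6 embryo columns are low in the top ranks and fade towards the lower ranks, where some embryo values lie near or above 0. The stage order among the 14 other columns differs between members.

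Over the members, the median stage value was -2.58 in E1 and -2.31 in E3. Among the later stages J had the lowest median, -0.03, followed by F3 at 0.17, F2 at 0.30, F1 at 0.52 and males at 0.71. The spread between arrays of a stage was widest in the embryos, with a median SD of 0.558 in E1 and 0.509 in E3 against 0.154 (F2) to 0.273 (F3) in the later stages. Both embryo arrays of slide 1 were the lowest of their stage, with medians of -3.00 and -2.82 over the members, against -2.69 to -2.11 on the other 4.

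The gene model veln4ptf096k89Loc11t1 had the widest gap. It measured -5.59, -6.24 and -6.27 in E1 and -5.48, -5.80 and -5.69 in E3. The J arrays gave 0.86, -0.01 and 0.25, and the females 0.16, -0.03 and -1.57 in F1, -0.03, 0.01 and -0.12 in F2, and 0.59, 1.08 and 0.44 at the end of the cycle in F3. The males stood above every other array, at 2.68 and 3.44. The lowest later array was F1 replicate 3, on slide 1, and it still lay 3.91 log2 units above the highest embryo array. All 4 probes showed the pattern, and in M they reached log2 signals of 13.0 to 14.5, against 3.91 to 6.09 in E1 and 4.17 to 5.98 in E3. In E1 only 1 of the 4 probes was well above background on at least 2 arrays. Its embryo level thus rests largely on signals near background, and the size of its 37.2-fold gap is uncertain.

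The next members differed from it in the later stages. The members ranked 4, 5 and 6, of which 4 and 6 share a locus, followed one course: the stage mean was lowest in J, at -0.85 to -0.76, passed from 2.10 to 2.20 in F1 through 1.36 to 1.41 in F2 to 0.42 to 0.45 in F3, and was highest in males, at 2.50 to 2.55. Over the 14 later arrays their values correlated at 0.9985 to 0.9991 with each other. With a correlation of at least 0.97 over these 14 arrays as the limit, chosen after the values were seen, 38 members had such a partner. They formed 14 groups, so that the 131 members held 107 separate profiles at this limit. A member joined a group through any 1 partner, so other pairs of a group can correlate less. The lowest was 0.89, among the members ranked 8, 9, 10, 23, 31 and 39. The members ranked 40 and 41 stayed separate at 0.9692. The arrays are shared between the members of a group, and whether their probes also hybridise to each other's transcripts was not tested, since no probe sequences were used here.

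Among the groups, 6 members with 6 different locus IDs (ranks 8, 9, 10, 23, 31 and 39) peaked in F1. Their stage means were 2.16 to 2.63 in F1, -0.03 to 0.12 in F2 and -0.76 to -0.13 in F3. The J means of these members were 0.13 to 0.81 and the male means 0.78 to 1.35. F1 females had just moulted and laid a new clutch. The member ranked 13, on the locus of rank 31, had a like course, at 2.82, 2.31 and 1.94 in F1 and -0.03, -0.17 and 0.54 in F2.

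Both other groups of the plot of like profiles were high in F1 and F2 and low in F3. The members ranked 29, 35 and 45 had stage means of 2.45 to 2.51 in F1 and 2.00 to 2.02 in F2, then -2.03 to -1.81 in F3. Their F3 arrays were far apart: the member ranked 45 measured 0.02, -2.04 and -4.08 there, the last within its embryo range of -6.21 to -3.12. The members ranked 52, 62 and 64 had stage means of 2.30 to 3.51 in F2 and -1.13 to -0.50 in F3, and their F3 arrays lay together, as at -0.93, -0.89 and -1.55 in the member ranked 52.

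**Figure D2:**
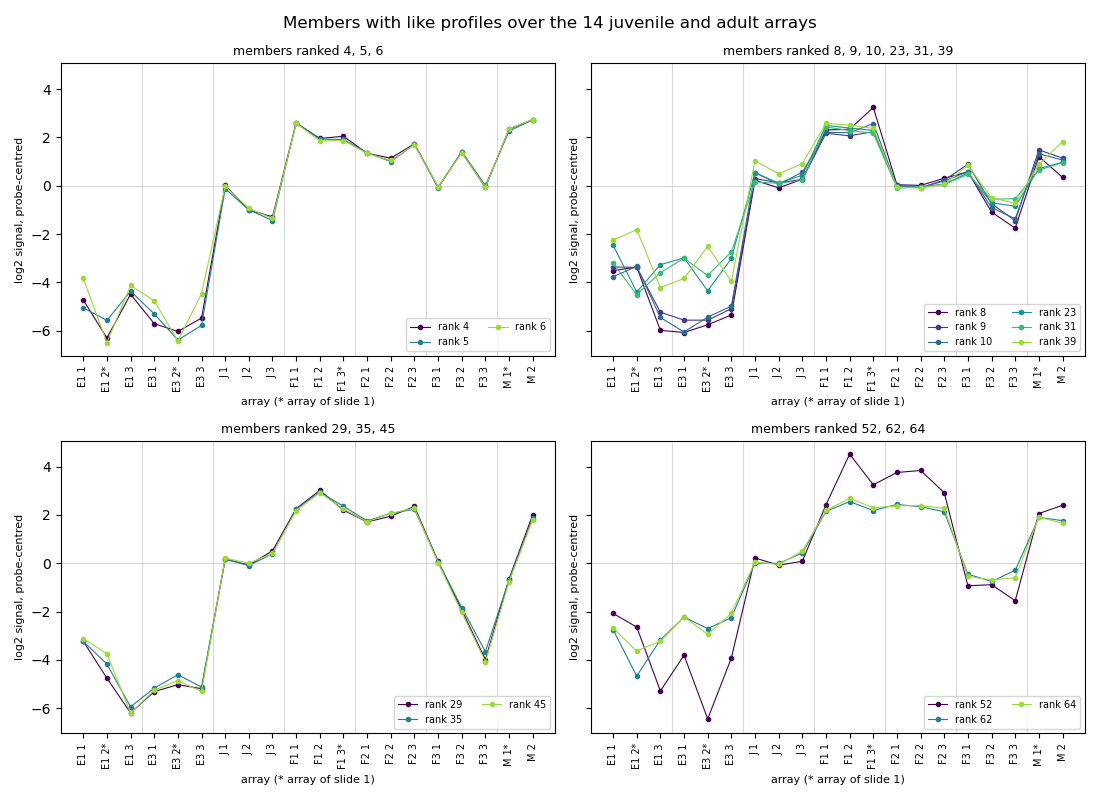
Log2 signal relative to the median of each probe (vertical axis) on each array (horizontal axis, by stage, slide 1 starred) for 4 groups of members with like profiles; the lines only join the points of a member, and replicates have no order. The members ranked 4, 5 and 6 nearly coincide, the members ranked 8, 9, 10, 23, 31 and 39 peak on the 3 F1 arrays, and the members in the lower panels drop in F3.

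The order of the 5 later stages among the members was uneven. Males were the highest stage in 54 members (41.2%), F1 in 36 (27.5%), F3 in 20 (15.3%), F2 in 17 (13.0%) and J in 4 (3.05%). Among all tested genes the highest of these 5 stages was M in 23.1%, F1 in 10.8%, F3 in 29.7%, F2 in 11.8% and J in 24.5%. The lowest of the 5 was J in 59 members (45.0%) and F3 in 33 (25.2%), against 16.9% and 17.3% of all tested genes. Neighbouring stages in such an order often lay within the spread between arrays, so the differences were tested per gene below. The detection rule bears on the share of males, since genes too dim in either male array were kept out.

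**Figure D3:**
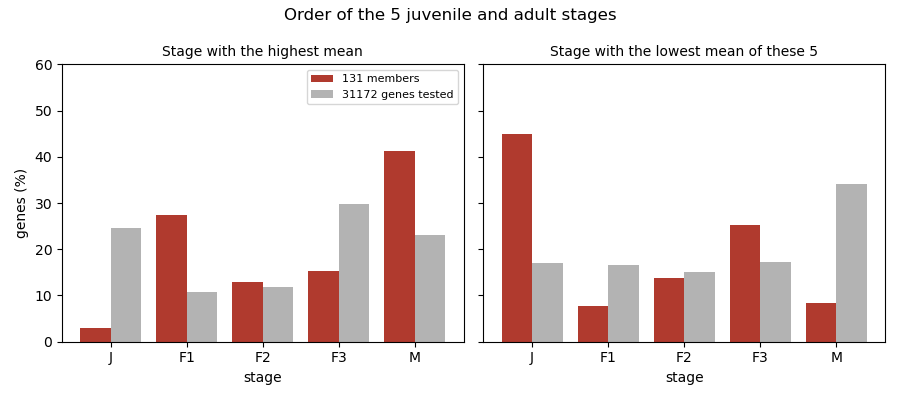
Share of genes (percent, vertical axis, from 0) whose highest (left) and lowest (right) mean among J, F1, F2, F3 and M fell in each stage, for the 131 members and for the 31172 genes tested. Males are the most frequent highest stage of the members, at 41.2%, and J the most frequent lowest, at 45.0%.

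Differences within the embryo stages and within the later stages were tested with limma in 1 fit of all 20 arrays and 31172 genes, and a gene was called when the Benjamini-Hochberg adjusted p over all genes was under 0.05 and the change at least 1.5-fold. The choice of members bounded these differences too: it used all 7 stage values, and in a member the step between E1 and E3 and each step between later stages that are neighbours in level are smaller than its gap. The direction of a difference was not part of the rule, but the counts of calls are a description of a chosen set. The study calls its replicates biological without saying whether those of a stage came from separate cultures. The p-values thus measure the spread between these samples, as 1 estimate per gene over all 7 stages. It is not the spread of the stages compared. The members' arrays spread more in embryos (median SD 0.558 in E1 and 0.509 in E3) than later (0.154 to 0.273). Standard errors may thus be too small for E3 against E1 and too large among the later stages. In 48 members (36.6%, against 32.6% of all tested genes) no call was made in any of the 6 comparisons. In 56 members (42.7% against 56.4%) none was made among the 5 later stages, and 25 members (19.1% against 16.3%) were called in 3 or more comparisons. The median residual SD between arrays was 0.445 over the members and 0.436 over all tested genes.

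The comparison of late with early embryos asks whether the signal of the members had begun to rise before release from the brood pouch. Of 131 members, 19 (14.5%) rose from E1 to E3 and 12 (9.16%) fell, while 22.7% of all tested genes were called higher and 31.3% lower. Since a member's step between E1 and E3 had to be smaller than its gap, nothing is read from these shares. The median member difference was 0.16 and that of all tested genes -0.24. The called rises spanned 0.69 to 2.31 and the called falls 0.83 to 2.62 log2 units. At least 2 probes were well above background in both embryo stages in 13 of the 19 members that rose and in 11 of the 12 that fell.

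The largest called rise was that of velh8ptf103k77Loc13t2, ranked 15. It measured -5.38, -6.65 and -5.53 in E1 and -3.84, -3.64 and -3.15 in E3, so that every E3 array was above every E1 array. In the later stages it lay between -0.24 and 1.02, with J at -0.03, 0.03 and -0.24 and males at 0.74 and 1.02. The rise was 2.31 ± 0.31 log2 units (SE, adjusted p = 6.46e-06), and a step of 3.45 between E3 and the lowest later stage remained. All 4 probes were well above background in both embryo stages. The member ranked 37 rose by 2.16 ± 0.32 (adjusted p = 2.28e-05), from -5.25, -4.83 and -5.06 to -2.66, -3.52 and -2.48. In E1 only 1 of its 4 probes was well above background on any array, so its E1 level rests mostly on signals near background and the size of this rise is uncertain.

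The largest called fall was that of velh8ptr088k97Loc4t2, ranked 25. It measured -3.73, -3.50 and -4.39 in E1 and -6.37, -7.61 and -5.51 in E3. Every E3 array was below every E1 array, and the difference was -2.62 ± 0.41 (SE, adjusted p = 3.61e-05). In J it measured -0.26, -0.90 and -1.53, and in the 11 adult arrays it stayed within -0.03 to 0.39. Its 4 probes had log2 signals of 17.7 to 18.5 in F1, F2, F3 and M, and of 11.0 to 11.7 in E3, and all were well above background in both embryo stages. The member ranked 3 fell by 1.85 ± 0.60 (adjusted p = 0.0155), a call that was lost without E1 replicate 1 (-1.64) or without E3 replicate 2 on slide 1 (-1.06).

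The embryo counts moved with slide 1. Without the 4 arrays of slide 1, 40 members were called higher and 12 lower, against 27.8% and 38.5% of all tested genes in that fit. Without E3 replicate 2 alone the counts were 32 and 7, against 24.4% and 30.3%. Within slide 1, which held 1 array of each stage, the median member difference was -0.27, with 52 members positive and 79 negative, and without E3 replicate 1 it was -0.01. The median over members thus changed sign with single arrays, while the members ranked 15 and 25 kept their calls with any single array left out. Without slide 1 their differences were 1.96 and -1.88.

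**Figure D4:**
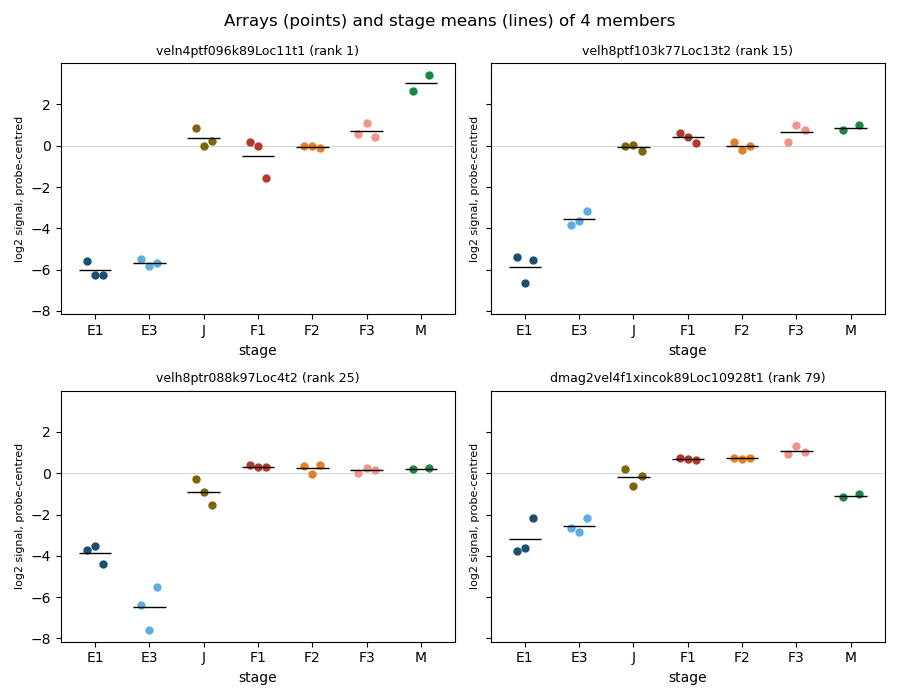
Log2 signal relative to the median of each probe (vertical axis) in the 7 stages (horizontal axis) for the 4 members whose IDs are printed; points are arrays and lines are stage means. All 4 are lowest in the embryo stages, and velh8ptf103k77Loc13t2 and velh8ptr088k97Loc4t2 differ between E1 and E3 in opposite directions.

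Juveniles were compared with the mean of the 3 female stages to ask whether members reached their adult level by the juvenile stage. In 39 of 131 members (29.8%) J was lower and in 1 (0.763%) it was higher, while 10.8% of all tested genes were called lower and 10.5% higher. The median member difference was -0.43, with 25 members positive, and that of all tested genes was 0.00. The called members were lower by 0.66 to 2.54 log2 units.

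The member ranked 18 had the largest difference, -2.54 ± 0.31 (SE, adjusted p = 5e-05). It measured -0.67, -1.04 and -1.71 in J and between -0.05 and 2.83 in the 9 female arrays, with no overlap. The members ranked 46 and 48, a pair with like profiles, measured -1.55 to -1.27 and -1.65 to -1.46 in J and at least 0.10 on every female array. Their differences were -2.33 ± 0.25 (adjusted p = 2.24e-05) and -2.46 ± 0.24 (adjusted p = 8.05e-06). The only member higher in J was that ranked 37, at 1.74, 1.34 and 1.20 in J against -1.12 to 0.52 in females, a difference of 1.48 ± 0.26 (adjusted p = 0.000739).

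J was lower in the ID-named members ranked 25 and 79 too, by 1.14 ± 0.33 (adjusted p = 0.0204) and 1.01 ± 0.27 (adjusted p = 0.0119) log2 units. In veln4ptf096k89Loc11t1 the J arrays lay within the female range, and no call was made (0.31 ± 0.31, adjusted p = 0.544). On slide 5, the only slide with J and female arrays, the median member difference was -0.65 and 105 of 131 members were negative. That slide held F1 and F2 but no F3 array, so this value is not against all 3 female stages. Without slide 1, J was higher in 2 members and lower in 47, against 15.3% and 16.7% of all tested genes, and each J difference given above kept its call or, in veln4ptf096k89Loc11t1, its lack of one. The lower count was 25 without J replicate 2, without J replicate 3 and with the slide as a block, where 7.50%, 6.80% and 8.18% of all tested genes were called lower.

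Males were compared with the mean of the 3 female stages. In 26 of 131 members (19.8%) the males were higher and in 12 (9.16%) lower, while 10.2% of all tested genes were called higher and 16.6% lower. The median member difference was 0.24, against -0.08 over all tested genes. When arrays were scaled to their 75th percentile instead, the counts were 21 and 15 (11.1% and 9.96% of all tested genes), and the member median of 0.09 lay below that of all tested genes, 0.57. This comparison is not independent of the choice of members, since the detection rule needed both male arrays. The other tested genes needed detection in at least 1 stage only. With a stricter filter on dim genes, 31 of 131 members were higher and 13 lower, against 25.4% and 21% of all tested genes. The larger share of higher members was then not seen. With 1 male array sufficient, 30 of 200 members were called higher and 25 lower.

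The males were highest above the females in veln4ptf096k89Loc11t1, by 3.00 ± 0.36 log2 units (SE, adjusted p = 1.38e-05), with both male arrays above all 9 female arrays. The member ranked 14, its closest profile, was higher by 2.43 ± 0.38 (adjusted p = 0.000175), at 2.51 and 2.53 in M and -0.93 to 0.92 in females. The member ranked 65 was higher by 1.88 ± 0.29 (adjusted p = 0.000124), at 2.16 and 2.08 in M against -0.59 to 0.94. Without slide 1, which leaves 1 male array, these 3 differences were 3.20, 2.34 and 1.87 and all were still called.

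The males were furthest below the females in dmag2vel4f1xincok89Loc10928t1, ranked 79. It measured -3.75, -3.60 and -2.19 in E1 and -2.65, -2.85 and -2.16 in E3. The J arrays gave 0.22, -0.59 and -0.14, and the females 0.72, 0.70 and 0.62 in F1, 0.75, 0.68 and 0.75 in F2, and 0.95, 1.33 and 1.02 at the end of the cycle in F3. The males measured -1.14 and -1.02, between the embryos and the juveniles, with no overlap with either. The difference from females was -1.91 ± 0.31 (SE, adjusted p = 0.000251), and -1.86 ± 0.42 (adjusted p = 0.0038) without slide 1. Its gap of 1.47 was thus the step from E3 to M, and the step to the females was wider.

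Juvenile and male differences met in some members: 8 (6.11%, against 0.934% of all tested genes) were lower in J and higher in M, and 11 (8.40% against 5.55%) were lower in J and lower in M. Both differences are set against the same female arrays, so these counts are not independent of each other. The male calls rested on few arrays. Without slide 1 the counts were 26 higher and 16 lower, against 16.7% and 19.7% of all tested genes. Without M replicate 1 alone they were 14 and 10 (7.44% and 11.3% of all tested genes), and without M replicate 2 they were 16 and 6 (8.43% and 17.3%). With the slide as a block the median member difference from the 3 female stages was 0.54. Within slide 1 the male array differed from the F1 array by a median of 0.06, with 67 members positive and 64 negative. Slide 1 held no F2 or F3 array, so these 2 values are not like for like.

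The female cycle was followed from its beginning to its middle and end. From F1 to F2, 15 of 131 members (11.5%) fell and 1 (0.763%) rose, against 2.62% of all tested genes called lower and 3.66% higher. From F2 to F3, 8 members (6.11%) fell and 1 (0.763%) rose, against 4.27% and 0.767%. From F1 to F3, 29 members (22.1%) fell and 3 (2.29%) rose, against 6.89% and 6.42%. The 3 comparisons share arrays, and 13 members (9.92%, against 2.03% of all tested genes) were lower than F1 in both F2 and F3, which use the same F1 arrays.

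Most members were not called in the cycle. The median member difference was -0.07 from F1 to F2, -0.03 from F2 to F3 and -0.22 from F1 to F3, against 0.05, 0.13 and 0.15 over all tested genes. With the 75th percentile scaling the medians of all tested genes were -0.34, 0.17 and -0.29, and the member medians of -0.12, 0.08 and -0.22 then lay above them from F1 to F2 and from F1 to F3. The calls with this scaling were 0 higher and 11 lower from F1 to F2 (2.13% and 2.11% of all tested genes). They were 0 and 8 from F2 to F3 (0.507% and 3.16%), and 3 and 27 from F1 to F3 (3.10% and 6.34%). The falls from F1 to F2 were led by the group that peaked in F1. The member ranked 39 measured 2.59, 2.51 and 2.37 in F1 and -0.06, -0.10 and 0.06 in F2, a difference of -2.52 ± 0.54 (SE, adjusted p = 0.00676). The member ranked 8 measured 2.31, 2.34 and 3.24 in F1 and 0.04, 0.02 and 0.31 in F2, a difference of -2.51 ± 0.61 (adjusted p = 0.0165). The call of the member ranked 8 was lost without F1 replicate 3, F2 replicate 1 or F2 replicate 2.

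The falls from F2 to F3 were the widest of the cycle. The member ranked 52 measured 3.76, 3.84 and 2.92 in F2 and -0.93, -0.89 and -1.55 in F3, a difference of -4.63 ± 0.75 (SE, adjusted p = 0.000809). The member ranked 62 measured 2.43, 2.34 and 2.13 in F2 and -0.45, -0.75 and -0.29 in F3, a difference of -2.80 ± 0.35 (adjusted p = 9.27e-05). In both, F3 lay below the 3 J arrays as well. The member ranked 45 fell by 4.05 ± 0.86 (adjusted p = 0.00771), and this call was lost without F3 replicate 3.

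All 8 members that fell from F2 to F3 were also lower in F3 than in F1 (6.11%, against 3.09% of all tested genes), with the F3 arrays shared. The member ranked 47 measured 1.91, 2.27 and 2.17 in F1, 1.61, 1.76 and 1.44 in F2 and 0.07, -0.12 and 0.00 in F3, and the difference from F1 to F3 was -2.13 ± 0.23 (adjusted p = 9.44e-06). The member ranked 66 was the only one to rise from F1 to F2, at 0.09, 0.28 and -1.29 in F1 and 1.62, 0.90 and 1.10 in F2, by 1.52 ± 0.41 (adjusted p = 0.0357). That call was lost without F1 replicate 3, on slide 1, where the difference was 1.02, and without any 1 of the F2 arrays.

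In each cycle comparison more members were called without slide 1, which held 1 F1 array, and more of all tested genes were called too. From F1 to F2, 0 members were then higher and 19 lower, against 5.64% and 4.94% of all tested genes. From F2 to F3 they were 11 and 17, against 5.38% and 8.25%, and from F1 to F3 they were 13 and 36, against 13.8% and 11.1%. Without F2 replicate 2 the falls from F1 to F2 were 7 (1.83% of all tested genes), and without F2 replicate 1 they were 8 (1.56%). With normexp background correction 4 members rose and 10 fell from F2 to F3, against 0.873% and 4.14% of all tested genes.

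**Figure D5:**
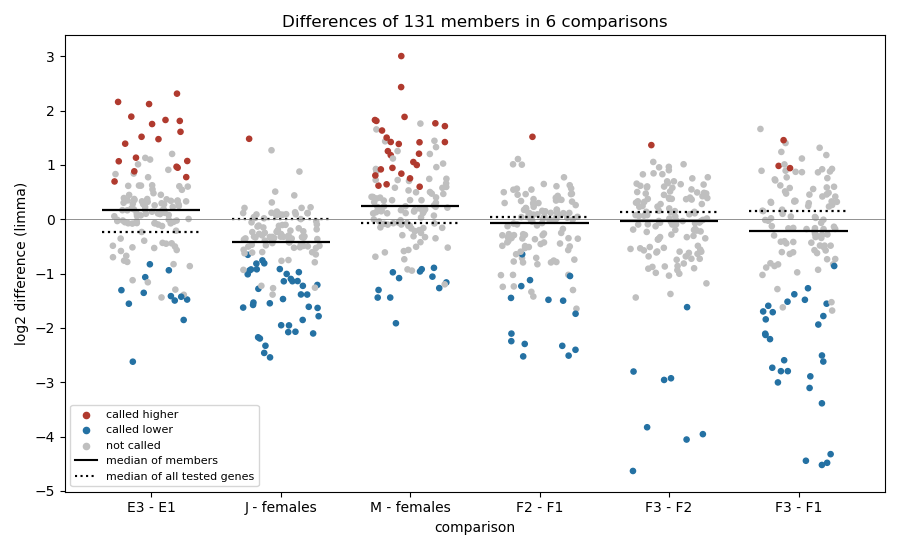
Log2 difference of each of the 131 members (points) in the 6 tested comparisons (horizontal axis), with called members coloured, and the medians over members (solid line) and over all tested genes (dotted line). The called juvenile differences are nearly all below 0, the male differences lie on both sides, and the widest falls are those into F3.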

How the data were processed

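Per the labels and the authors' methods, whole-body RNA of 20 samples was hybridised to single-colour Agilent arrays with about 4 probes per gene model. The authors deposited the scanner output, whose processed signal is a background-corrected intensity on a linear scale, extracted with Agilent Feature Extraction 10.5 per the submitters' processing notes. A table of log2 values was deposited beside it, which matched quantile-normalized scanner values minus each probe's median (correlation 0.998981 to 0.999946 per array). Its scale, centring and direction were inferred from this match.

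Members were chosen from the matrix. The members and the lists were chosen with earlier results of these data known. For tests, outlier and control spots were left out, log2 processed signals were averaged per probe, put through quantile normalization (limma 3.58.1, R 4.3.3), centred on each probe's median, and summarised per gene by the median over probes. Genes entered when at least 2 probes were well above background on at least 2 arrays of at least 1 stage. Quantile normalization replaced the 75th percentile shift as the main setting because the matrix is quantile normalized. Groups came from the sample labels, and all stages share 1 estimate of spread. The procedure was tested on simulated data. The Python version was 3.11.15, with numpy 2.4.6, pandas 2.3.3 and matplotlib 3.10.9. The number of arrays limits the precision.

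Alternatives were normexp background correction, the 75th percentile shift, the matrix itself, the mean over probes, other filters, outlier spots kept, blocks for slide, scan day and replicate number, each array left out, slide 1 left out, a Student t-test, and other member sets. The t-test compared gene values at the study's limit of p under 0.001, unadjusted, or at an adjusted p under 0.05. Both needed a change of at least 1.5-fold. Against juveniles or males, the female stages were pooled as 1 group. The study instead tested probes and required every pairwise comparison of a stage to pass, so its procedure was not repeated. The IDs printed are those of the widest gap, the largest called rise and fall from E1 to E3, and the most negative called difference of males; other members are given by rank. The study refers to an annotation deposited with the array design; it was not used here, so keyword families and stage markers, which need gene names, were not applied.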

Additional observations from a re-analysis of the deposited data

How the results depend on the processing

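The values over the members were recomputed 460 times under the alternatives, of which 440 stayed within 1.5 times for a count or within 0.445 (the median residual SD) for a median, and 20 moved further. That limit is wider than each of the 6 median differences between stages, and 7 of the 210 recomputed median differences changed sign: 1 for E3 against E1, 1 from F1 to F2 and 5 from F2 to F3. Of 776 recomputed differences of members with the largest calls, 702 kept their call, 74 lost it and 0 changed sign. Late against early embryos, the called members numbered 31, but 52 without the 4 arrays of slide 1. With the t-test they numbered 1 at an unadjusted p under 0.001 (5.92% of all tested genes higher and 5.44% lower). At an adjusted p under 0.05 they numbered 7 (13.6% and 15.6%). The unadjusted limit differs from that of the main fit, so these counts are not like for like. Shares not repeated here stand with the counts above. Juveniles against females, the 40 called became 18 with that t-test unadjusted (5.02% and 5.28%). They became 69 of 200 with 1 male array sufficient (10.5% and 10.8%, as in the main fit), a set chosen after seeing the data. Males against females, 38 became 10 with the unadjusted t-test (2.91% and 7.92%). From F2 to F3, 9 became 14 with normexp (0.873% and 4.14%), 14 with the scan day as a block (1.73% and 5.42%) and 28 without slide 1. They became 14 of 200 with 1 male array sufficient (0.767% and 4.27%) and 4 with the unadjusted t-test (0.879% and 1.80%). From F1 to F3, 32 became 49 without slide 1 and 16 with the unadjusted t-test (1.70% and 2.08%). Without slide 1, males have 1 array, assumed to vary like the other stages. The median embryo gap was 1.77 on scanner values and 1.07 with normexp. The causes of these shifts were not tested.

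With each array left out in turn, the called members numbered 21 to 39 for E3 against E1, 26 to 43 for J and 22 to 45 for M against females, 7 to 22 from F1 to F2, 7 to 12 from F2 to F3 and 25 to 42 from F1 to F3, and the median gap was 1.58 to 1.87. The median differences were -0.01 to 0.43, -0.45 to -0.40, 0.23 to 0.35, -0.15 to -0.04, -0.07 to 0.03 and -0.30 to -0.19 in the same order. The shares of all tested genes called higher and lower follow for the fewest, then the most members. For E3 against E1 they were 20.2% and 28.8%, then 24.4% and 30.3%. J had 7.67% and 7.50% (without J replicate 2), then 12.2% and 12.9%. M had 12.2% and 18.9% at 45 members. From F1 to F2 they were 2.69% and 1.83%, then 3.71% and 2.69%. From F2 to F3 they were 0.462% and 3.10%, then 1.05% and 4.64%. From F1 to F3 they were 3.54% and 5.09%, then 9.64% and 8.07%. The 75th percentile shift moved the median of all tested genes from -0.24 to -0.65 for E3 against E1, from 0.00 to -0.19 for J, from -0.08 to 0.57 for M, from 0.05 to -0.34 from F1 to F2 and from 0.15 to -0.29 from F1 to F3. The member medians with this shift were 0.13, -0.40, 0.09, -0.12 and -0.22, so relative to all genes M and both cycle differences changed side, and it left the gap above 0 in 125 of 131 members.

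No pairing of the samples by replicate number was seen in each array's deviations from its stage mean over all tested genes. Whether same-numbered samples shared a culture or a preparation cannot be told from these values. Between stages, these deviations correlated at -0.03 on average for same-numbered arrays (lowest -0.36). Only 5 of 20 arrays correlated best with an array of their own number. With the replicate block the called members numbered 31, 38, 33, 13, 9 and 34. With the rule as given, no set larger than the 131 could be formed.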
